A study of Mus musculus with 9 samples.

Results

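Mature neutrophils with few or no counts of the stefin A gene cluster were selected from single-cell profiles of mouse knee joints. The members were chosen by measured values, the counts of 14 genes in each cell. A cell was a member if S100a8 and S100a9 together made up at least 12% of its counts, Camp and Ngp together less than 3%, the primary granule genes Mpo, Elane, Prtn3 and Ctsg fewer than 5 counts in sum, and Stfa2, Stfa3, Stfa2l1, BC100530, BC117090 and Gm5483 fewer than 3 counts in sum. Of 16751 deposited cells, 1155 were members. They came from all 9 mice, with 59, 18, 15 and 10 cells in healthy mice 1 to 4. Sick mice 1, 3, 4, 5 and 6 gave 209, 309, 94, 190 and 251. The levels of the 14 genes are therefore a description and are not tested.

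Whole knee joints of female 129/Sve mice aged 8 weeks were profiled with Seq-Well, which traps single cells in small wells with barcoded beads that bind their poly(A) RNA. The 5 sick mice had antigen-induced arthritis, a joint inflammation set off by methylated bovine serum albumin (mBSA) in animals that had been sensitized to it. The 4 healthy mice had received phosphate-buffered saline, and all joints were taken 1 week after the trigger. The labels do not say whether the healthy mice were sensitized too, and each mouse gave 1 library made from a joint that holds marrow, blood, synovium, muscle and bone.

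Neutrophils are short-lived phagocytes that mature in the bone marrow, where they make their granule proteins in waves. The primary granule enzymes come first, then secondary granule proteins such as cathelicidin (Camp), neutrophilic granule protein (Ngp) and lactotransferrin (Ltf), and last the tertiary granule enzymes such as the gelatinase Mmp9. Cells ready to leave the marrow carry the chemokine receptor Cxcr2 and the formyl peptide receptor Fpr1 and make much S100a8 and S100a9, the subunits of calprotectin. Stefin A proteins are inhibitors of cysteine cathepsins, encoded in mice by a cluster of near-identical genes whose reads can be split or shared between copies, so they are counted here as a sum.

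The name "without stefin A" held only in part. Among the 1398 mature neutrophils, that is, cells that passed every other step of the rule, 838 had no stefin A count, 202 had 1 and 115 had 2, and these 1155 are the members. Another 63 cells just outside the limit had 3 counts, and 180 had more, up to 38. The count of a cell depends on its depth: after each cell was thinned to 400 counts, 1305 of 1446 mature neutrophils (90.2%) fell below the limit, against 82.6% as deposited. The other edges were as gradual. At the S100 limit 167 members lay between 12% and 13% and 169 cells between 11% and 12%, and at the Camp and Ngp limit 462 members lay between 2% and 3% and 507 cells between 3% and 4%. At the primary granule limit 10 members had 4 counts and 11 cells had 5. The members are therefore a stretch of a continuous range, and are called neutrophils with few stefin A counts here.

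A member cell had a median of 635 counts and 268 genes. Its median S100a8 and S100a9 share was 18.0%, and its median Camp and Ngp share was 1.71%. Only 18 members had no Camp or Ngp count at all, whereas 825 had no count of a primary granule gene. Summed over the members of a mouse, counts ran from 10164 to 47986 in healthy mice and from 76134 to 243424 in sick mice, so the healthy values are the less precise ones throughout. Of the 9 libraries, 8 barcodes occurred in more than 1 library, and 1 member carried such a barcode.

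The 10 member cells of healthy mouse 4 stood apart. Their 6 mature neutrophil markers summed to 3837 CPM (counts scaled to the same total in every library), against 10422 to 24340 CPM in the other healthy mice and 9089 to 18623 CPM in the sick mice. They also had the highest median number of genes per cell, 342, where the other mice had 249.5 to 281. Shares, depths, marker folds and mitochondrial transcripts are given with and without this mouse below. Haemoglobin transcripts made up 8.56%, 21.0%, 25.2% and 24.2% of member counts in healthy mice 1 to 4, and 14.0%, 13.03%, 19.3%, 18.8% and 26.6% in sick mice 1, 3, 4, 5 and 6. None of the 8 erythroid markers was at 0 in the members, and their summed level, 176128 CPM, compares with 279017 CPM in the cells outside the S100 limit. The part of this red cell RNA in the results was not tested, except that the interferon genes below were also compared in members with haemoglobin under 10% of their counts.

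Markers of other cell types were present in the members. The 12 monocyte or macrophage markers summed to 0 to 418 CPM in healthy mice and 163 to 863 CPM in sick mice, with none at 0 overall. The 8 eosinophil markers summed to 295 to 2140 CPM and 222 to 955 CPM, also with none at 0. The 6 plasma cell markers summed to 295 to 753 CPM in healthy and 602 to 2465 CPM in sick mice, and the 6 skeletal muscle markers to 98.4 to 585 CPM and 235 to 1253 CPM. Pooled over mice, the muscle markers were at 760 CPM in members and 391 CPM outside the S100 limit. The mast cell or basophil markers summed to 0 to 104 CPM in healthy and 45.2 to 692 CPM in sick mice, with sick mouse 1 highest. Cd3e of the T cell markers, Itga2b and Gp9 of the platelet markers, Pdgfra of the fibroblast markers, Sp7 of the osteoblast markers and Emcn of the endothelial markers were at 0 in all 1155 cells.

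The members made up a larger share of the cells of sick joints than of healthy joints, by a difference that passed the test alone but not after adjustment. They were 5.61%, 2.05%, 1.07% and 0.818% of all cells in healthy mice 1 to 4, and 9.98%, 8.03%, 6.73%, 8.38% and 9.68% in sick mice 1, 3, 4, 5 and 6. Every sick mouse lay above every healthy mouse, and healthy mouse 1 lay nearest to them. The means were 2.39% ± 2.21 (SD, n = 4) and 8.56% ± 1.32 (SD, n = 5), a difference of 6.17 percentage points. The two-sided exact permutation test gave p = 0.0159, the smallest value that 126 regroupings of the mice allow, and 0.0635 after Benjamini-Hochberg adjustment over 4 such tests. Against healthy mouse 1 alone, the only healthy mouse with at least 20 members, the difference was 2.95 points. All cells that met the S100 limit also made up a larger share in sick joints, except that healthy mouse 1 lay above sick mouse 4. In healthy mice 1 to 4 they were 368 of 1051, 103 of 877, 84 of 1400 and 73 of 1223 cells. In sick mice 1, 3 and 4 they were 1017 of 2094, 1573 of 3850 and 420 of 1397. In sick mice 5 and 6 they were 1030 of 2266 and 978 of 2593. Members were 16.3% ± 1.88 (SD, n = 4) of these cells in healthy and 21.3% ± 2.81 (SD, n = 5) in sick joints. A share of all cells can move because the members or the other cells changed in number, and the data cannot tell these apart.

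**Figure D1:**
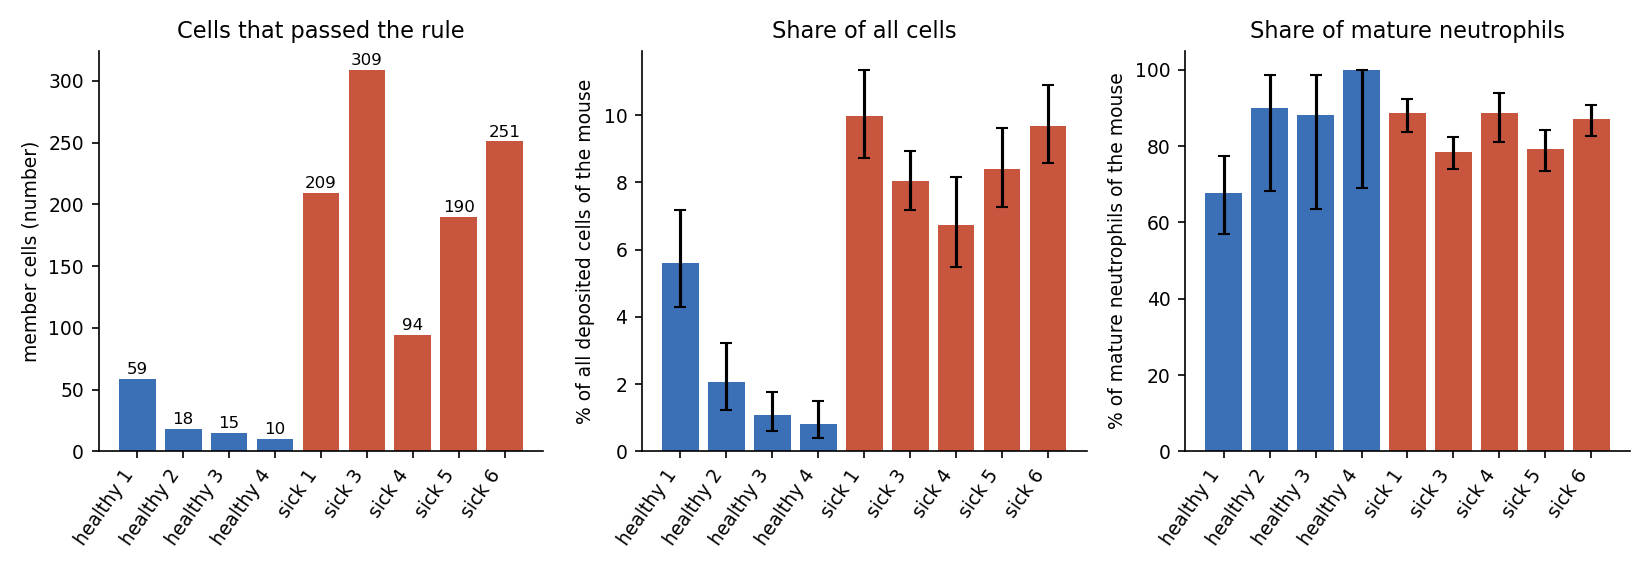
Member cells per mouse as a number, as a percentage of all deposited cells and as a percentage of mature neutrophils, with 95% exact (Clopper-Pearson) binomial intervals that cover counting error only; blue bars are healthy mice and red bars sick mice. The 5 sick mice sit between 6.73% and 9.98% of all cells and above the 4 healthy mice, while shares of mature neutrophils overlap.

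The split of mature neutrophils at the stefin A limit did not differ detectably between the groups. Members were 67.8%, 90.0%, 88.2% and 100% of mature neutrophils in healthy mice 1 to 4, out of 87, 20, 17 and 10 cells. In sick mice 1, 3, 4, 5 and 6 they were 88.6%, 78.4%, 88.7%, 79.2% and 87.2%, out of 236, 394, 106, 240 and 288. Healthy mouse 1 lay lowest and healthy mouse 4 highest, so the sick mice fell within the healthy range. The difference of -2.12 points (exact permutation p = 0.683, two-sided) became 2.38 without healthy mouse 4 and 2.78 after thinning to 400 counts. With so few healthy cells, the exact 95% interval of 10 of 10 in healthy mouse 4 already reaches down to 69.2%.

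Depth and complexity of the member cells did not differ detectably between the groups. The median counts of a member cell averaged 668 ± 91.5 (SD, n = 4) in healthy joints and 636 ± 46.6 (SD, n = 5) in sick joints, with an exact permutation p of 0.524. The median genes of a member cell averaged 276 ± 44.3 and 268 ± 8.79, with an exact permutation p of 0.857. Without healthy mouse 4 the sick mice had 7.33 more counts and 13.1 more genes (exact permutation p = 0.893 and 0.107).

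The 6 genes given as markers of these cells are those of a mature neutrophil. Mmp8 (neutrophil collagenase) was at 2737, 2497, 2651 and 316 CPM in healthy mice 1 to 4, and at 2551, 1871, 1491, 2119 and 1505 CPM in sick mice 1, 3, 4, 5 and 6. These and the later CPM values of single genes in members, sick against healthy, are scaled by TMM, edgeR's correction for composition. Sums over genes, levels set between kinds or classes of cells, and the CPM that few counts stand for are unscaled. Healthy mouse 4 lay far below the rest, and the other healthy mice overlapped with the sick mice. Retnlg, which encodes a resistin-like secreted protein, was at 17291, 11551, 7070 and 3579 CPM in healthy and at 12291, 10458, 6763, 13891 and 9792 CPM in sick mice. Again the healthy range enclosed the sick range. Cxcr2 spanned 105 to 1465 CPM in healthy and 511 to 1491 CPM in sick mice. Mmp9, Fpr1 and Il1f9 (interleukin-36 gamma, an alarmin) had lower levels, and Fpr1 and Il1f9 had no count in healthy mouse 4. None of the 6 markers passed the test between groups, with log2 fold changes from -0.15 (Mmp8) to 0.39 (Il1f9) and a median of 0.08, against 0.07 for all genes tested. That median rested on single mice: it was 0.75, with 6 of 6 above 0, without healthy mouse 1 (0.32 for all genes), and -0.05, with 2 of 6 above 0, without healthy mouse 4 (0.15 for all genes).

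**Figure D2:**
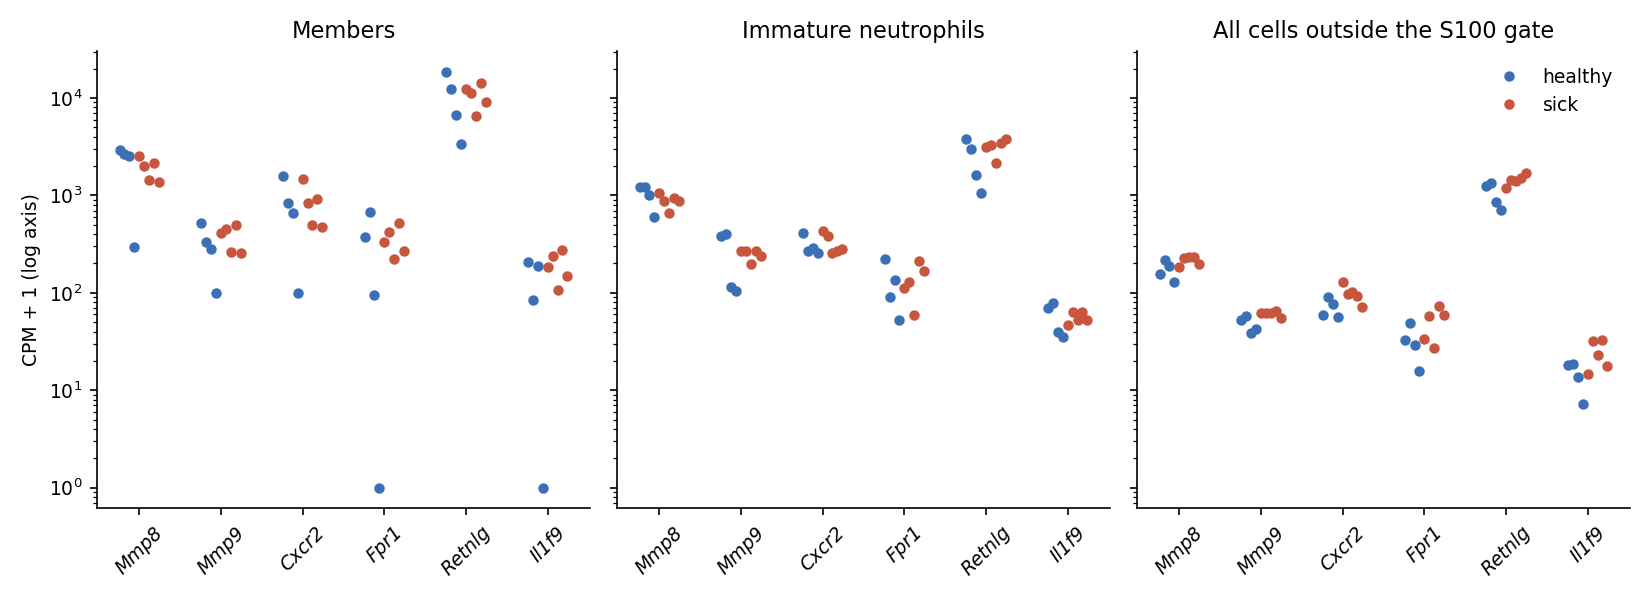
CPM plus 1 on a log axis of the 6 marker genes in members, immature neutrophils and all cells outside the S100 limit; each point is 1 mouse (blue healthy, red sick) and values are not TMM-scaled. Summed over all mice the 6 markers reach 15002 CPM in members, 5027 CPM in immature neutrophils and 1724 CPM outside the limit.

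Members carried more of the 6 mature neutrophil markers than immature neutrophils did. Immature neutrophils are the 4009 cells that met the same S100 and primary granule limits but held 3% or more Camp and Ngp. The rule separated them by their own counts, so the following are levels within mice, with no test, in unscaled CPM over the 6 mice (healthy 1 and the 5 sick) with at least 20 cells of both kinds. Among 1156 genes with a mean of at least 100 CPM in either, 20.2% were higher and 13.3% lower in members in all 6 mice. All 6 markers were higher in 6 of 6 mice, with Retnlg at 11989 ± 4222 CPM (SD, n = 6) against 3269 ± 607 CPM and Cxcr2 at 966 ± 477 CPM against 337 ± 77.5 CPM. The median log2 ratios of the markers ran from Mmp9 at the low end to Retnlg at the high end, with a median of 1.44 over the 6, where it was 0.06 over all 1156 genes.

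The 8 genes with the highest ratios to immature neutrophils encode several kinds of protein. Prok2, which encodes the chemoattractant prokineticin 2, led with a median log2 ratio of 2.59 (133 ± 83.6 against 19.3 ± 14.9 CPM). Then came Ccl6 (a chemokine) at 2.17, Acod1 (the enzyme that makes itaconate) at 2.10, Retnla at 2.04 and Retnlb at 1.98. Clec7a (dectin-1, a receptor for fungal glucans) stood at 1.97, Cd84 at 1.97 and Il1b (interleukin-1 beta) at 1.91. Each of these 8 was higher in 6 of 6 mice. Retnla, Retnlb and Retnlg are closely related genes, and how the authors' counting split reads between them is not known.

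The 8 genes with the lowest ratios were of several kinds as well. Chil3 (a chitinase-like protein, Ym1) was at 729 ± 115 CPM in members and 3692 ± 598 CPM in immature neutrophils, with a median log2 ratio of -2.39. Its near-identical relative Chil4 had a ratio of -2.75. Fcnb (ficolin B) stood at -2.31, Zmpste24 (a prelamin protease) at -2.55, Inhba (an activin subunit) at -2.25, Ncam1 at -2.18 and Ly75 at -1.97. The predicted gene Gm6522 had the lowest ratio, -2.84. All were lower in 6 of 6 mice. Of 9 genes of the immature neutrophil list at this level, 7 were lower in all 6 mice (13.3% of all 1156 genes were). They included Ltf at 2739 ± 549 against 9553 ± 1991 CPM, Lcn2 at 1581 ± 183 against 3325 ± 520 CPM and Cebpe, the transcription factor of the secondary granule stage, at 92.2 ± 34.6 against 293 ± 59.6 CPM.

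The gene lists were counted in the same way. Of all 1156 genes, 20.2% were higher and 13.3% lower in members in all 6 mice. Of 8 interleukin-1 family and mediator genes, 6 were higher in members in all 6 mice. Il1r2, the decoy receptor for interleukin-1, was at 446 ± 199 against 190 ± 45.8 CPM, and Cxcl2, a neutrophil-attracting chemokine, at 235 ± 96.2 against 80.0 ± 43.0 CPM. Of 12 pattern recognition and lectin receptors, 8 were higher in all 6 mice, among them Trem1, an amplifier of inflammatory signals, at 979 ± 143 against 456 ± 85.6 CPM. Of 7 genes of NF-kB feedback and survival, 6 were higher in all 6, for example Mcl1, which keeps neutrophils alive, at 386 ± 130 against 228 ± 26.9 CPM. Of 12 chemoattractant receptors and adhesion genes, 5 were higher in all 6 and 1 was lower: Ltb4r1, the leukotriene B4 receptor, at 45.8 ± 16.9 against 134 ± 38.9 CPM. The 14 tertiary granule and matrix genes were divided, with 5 higher (Timp2, Adam8, Mmp8, Ctsd and Mmp9) and 4 lower (Pglyrp1, Lyz2, Ceacam1 and Cd177) in all 6 mice. Of 6 cell cycle genes, 3 (Rrm2, Ccnb2 and Tyms) were lower in all 6 mice and none was higher in all. Of 16 interferon-stimulated genes, 7 were higher in all 6 mice and none was lower in all. Also higher in all 6 were 5 of 12 immediate-early genes, 3 of 4 S100 genes outside the rule and 3 of 6 mitochondrially encoded genes. So were 2 of 6 transcription factors, 1 of 4 MHC class I genes and 1 of 8 glycolysis genes. None of 7 NADPH oxidase genes and none of 4 heat-shock chaperones was. Lower in all 6 were 2 NADPH oxidase genes, 1 heat-shock chaperone and 1 transcription factor. Mki67, a marker of dividing cells, was at 528 ± 393 CPM in members against 624 ± 159 CPM.

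Levels also differed among the members. The 1155 cells were divided by their Camp and Ngp share into 316 cells above 0 and under 1%, 359 cells from 1% to under 2% and 462 cells from 2% to under 3%, beside the 18 with none. In sick mice, with 19 to 116 cells per mouse and class, Retnlg was at 16820 ± 3910 (SD, n = 5), 11534 ± 3019 and 6909 ± 1287 CPM along these classes, given as levels with no test. Il1b was at 1025 ± 316, 662 ± 567 and 307 ± 152 CPM, and Trem1 at 1662 ± 300, 1034 ± 291 and 600 ± 121 CPM. Ltf ran the other way, from 807 ± 235 to 2185 ± 195 and 3790 ± 786 CPM, and Chil3 from 232 ± 135 to 590 ± 179 and 1078 ± 210 CPM. Isg15 was at 345 ± 154, 266 ± 202 and 234 ± 117 CPM, with ranges over mice that overlapped. The same mice supplied each class, and steps within single mice were not examined. Slfn4, another interferon-stimulated gene, was at 1335 ± 443, 864 ± 181 and 679 ± 180 CPM, and its lowest mouse in the first class (996 CPM) was above its highest in the last (938 CPM). Depth and red cell RNA moved with the classes: the median counts per cell were 568.5, 642 and 724, and haemoglobin was 10.4%, 19.3% and 20.8% of counts. Their part in the order was not tested.

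**Figure D3:**
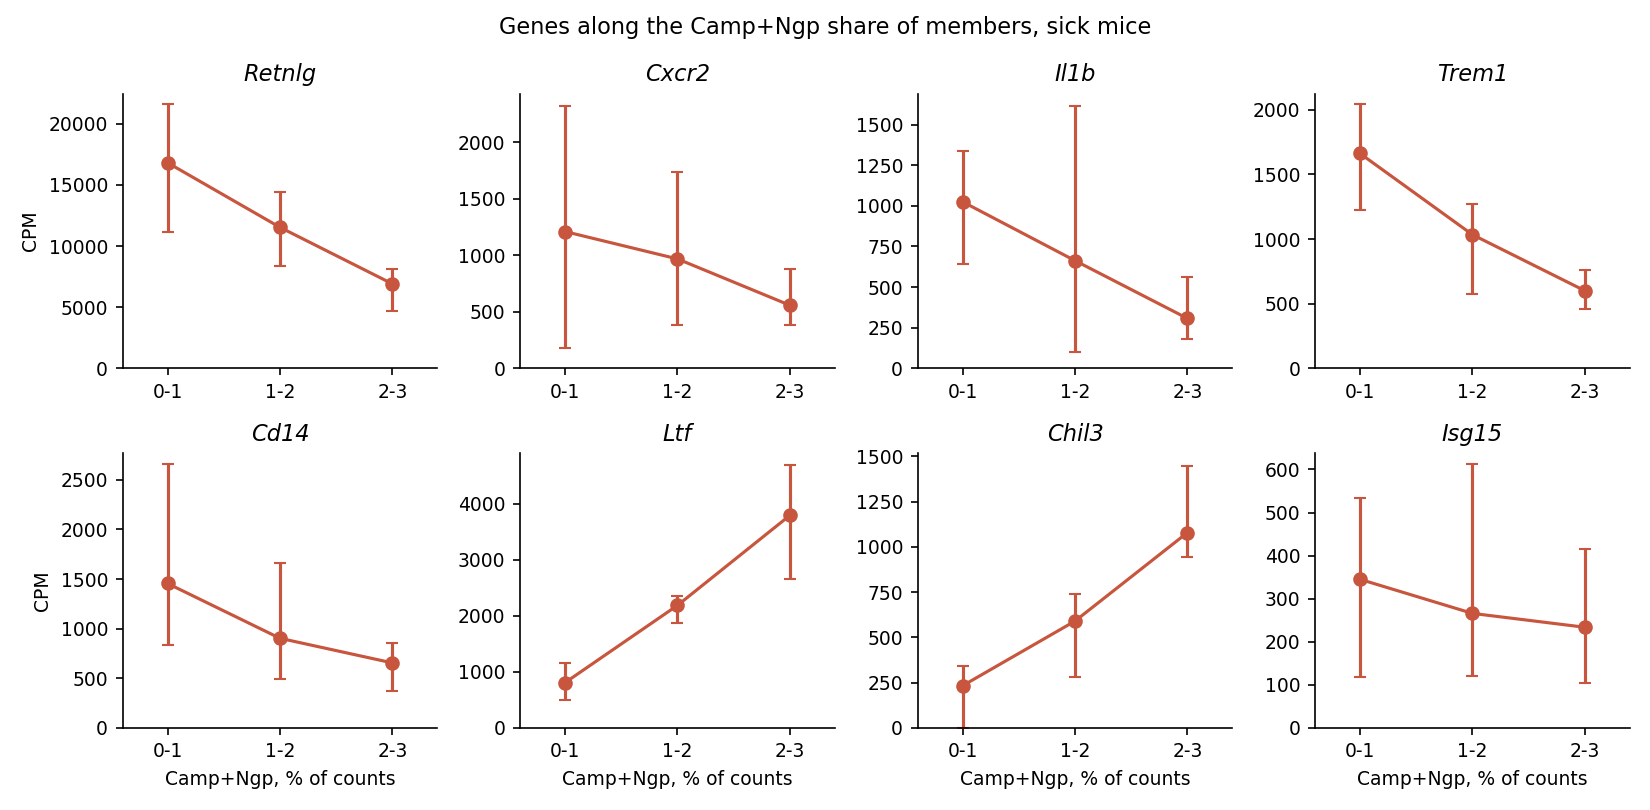
CPM of 8 genes in members of the 5 sick mice, divided by the share of Camp and Ngp in a cell's counts (above 0 to 1%, 1 to 2% and 2 to 3%); points are means over mice and bars run from the lowest to the highest mouse. Retnlg and Trem1 step down and Ltf and Chil3 step up, while the bars of Isg15 overlap in all 3 classes. The same 5 mice are in each class, and changes within single mice are not shown.

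The 243 mature neutrophils with 3 or more stefin A counts were the other neighbours. In the 5 mice with at least 20 cells of both kinds (healthy 1 and sick 1, 3, 5 and 6), 7.05% of 1191 genes were higher and 8.98% lower in members in all 5 mice. These levels, too, have no test. Retnlg was lower in members in 5 of 5 mice, at 13076 ± 3664 against 18418 ± 5015 CPM, as was Fpr1 at 384 ± 97.1 against 708 ± 362 CPM. The other 4 markers were lower in 4 of 5 mice, and the median log2 ratio of the 6 was -0.49. Il1b stood at 694 ± 366 against 1079 ± 411 CPM and Trem1 at 990 ± 156 against 1418 ± 382 CPM, each lower in 5 of 5 mice. None of these genes was in the rule. Of the genes chosen for the largest ratios, those lower in members in 5 of 5 mice were Ankrd22 (53.3 ± 43.7 against 189 ± 99.7 CPM), Synj1, Dennd5a, Cd300ld (an activating receptor of myeloid cells) and Gm8399. Psmd4, a proteasome subunit, and Mier1 were higher in 5 of 5. Chic2, Ptprcap and Iqsec1 were lower in 4 of 5 mice, and Adam10, Fcnb and Snrpe higher in 4 of 5. Hist1h2ae, Ssb and Xist were higher in only 3 of 5. These genes have few counts per mouse in the neighbours, whose 27 to 85 cells limit the precision.

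The comparison of sick with healthy members asked which genes changed with arthritis within this cell state. Interferon-stimulated genes, which cells switch on after interferon signals through STAT and IRF factors, were the ones that passed the test. Of 750 genes with enough counts, 2 (0.267%) were called by edgeR's quasi-likelihood test at an adjusted p under 0.05, and both were higher in sick mice. They were Isg15 and Ifi27l2a. Without adjustment 42 genes (5.6%) had p under 0.05: 25 genes (3.33%) on the higher side and 17 (2.27%) on the lower side. Of the 750 genes, 22 (2.93%) were higher in every sick mouse than in every healthy mouse and 9 (1.2%) lower.

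Isg15 encodes a ubiquitin-like protein that is joined to other proteins after interferon signals. It lies on chromosome 4 from 156199424 to 156200818 on the minus strand (GENCODE vM21, GRCm38). It had no count among the 80855 member counts of the 4 healthy mice, and 35, 57, 36, 37 and 23 counts in sick mice 1, 3, 4, 5 and 6. The sick levels were 229, 219, 488, 275 and 124 CPM, with sick mouse 4 highest and sick mouse 6 lowest, and no overlap with the healthy mice. A count of 0 allows up to 3 counts, which is 37.1 CPM over the healthy group, so the pooled sick level of 233 CPM (unscaled) was at least 6.29-fold higher. The edgeR adjusted p was 0.0329. In healthy mice 2, 3 and 4 taken singly, 3 counts stand for 251 to 295 CPM, so the absence is carried by healthy mouse 1, where they stand for 62.5 CPM. The call was lost without healthy mouse 1 or 2 (edgeR adjusted p = 0.172 and 0.0537), and without sick mouse 1, 3 or 5 the gene did not pass the filter on low counts.

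Ifi27l2a, a small interferon-inducible membrane protein, lies on chromosome 12 from 103442167 to 103443680 on the minus strand. Its levels were 135, 0, 196 and 0 CPM in healthy mice 1 to 4 and 975, 420, 596, 439 and 570 CPM in sick mice 1, 3, 4, 5 and 6. The lowest sick mouse was above the highest healthy mouse, and healthy mice 2 and 4 had no count. The means were 82.8 ± 98.9 (SD, n = 4) and 600 ± 223 CPM (SD, n = 5), a log2 fold change of 2.54 ± 0.56 (SE) with an edgeR adjusted p of 0.0329. Leaving out 1 mouse at a time moved the adjusted p of edgeR from 0.0209 to 0.139, and the call held only without healthy mouse 3 or sick mouse 4. The log2 fold change stayed between 2.28 and 3.43 in those 9 fits.

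Both calls were lost with a minimum number of cells and with DESeq2. The folds of Ifi27l2a kept about the same size, while the fitted fold of Isg15 was smaller with DESeq2. Only healthy mouse 1 had 20 member cells, and with that minimum (1 healthy against 5 sick mice, the lone healthy mouse assumed to vary like the sick mice) edgeR called none of 2773 genes, with 282 at an unadjusted p under 0.05. The log2 fold change of Ifi27l2a was then 2.29 ± 0.63, and the fitted one of Isg15, which is no bound because healthy members had no count, was 8.18 against 7.65 with all mice. DESeq2 called none of 17024 genes, with 327 at an unadjusted p under 0.05. It gave Ifi27l2a 2.59 ± 0.60 and Isg15 a fitted 4.57 ± 1.08. In members with haemoglobin under 10% of their counts, edgeR called 2 genes of 454. They were Ifi27l2a, with a log2 fold change of 2.79 ± 0.64 (adjusted p = 0.0264), and Igkc, while Isg15 missed the threshold (fitted log2 fold change 6.70 ± 1.74, edgeR adjusted p = 0.0606).

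Igkc, the immunoglobulin kappa constant chain made by plasma and B cells, is named here after its values were seen. In all members it was at 154, 234, 196 and 105 CPM in healthy mice 1 to 4 and at 569, 955, 461, 387 and 1510 CPM in sick mice 1, 3, 4, 5 and 6. Every sick mouse was above every healthy mouse, and the log2 fold change of 2.21 ± 0.54 missed the threshold (edgeR adjusted p = 0.0729). The 6 plasma cell markers in members summed to 602 to 2465 CPM in sick and 295 to 753 CPM in healthy mice (unscaled). Igkc is 1 of these 6, so the sum is no separate measure beside it. The part of plasma cell RNA in the Igkc value was not tested.

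Both called genes belong to the list of interferon-stimulated genes, which was drawn up with earlier results of these data known and is described here by its counts. Of its 65 genes, 13 passed the filter on low counts. Of those 13, 2 rose, 0 fell, 11 had a log2 fold change above 0 (56.1% of all 750 genes did) and 7 had no overlap on the higher side (2.93% of all genes did). Their median log2 fold change was 1.28, against 0.07 for all genes tested. A gene with low counts passes the filter only where one group has enough of it. The other 52 enter only the summed level below, which also holds the 13 and so does not measure the 52 by themselves.

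Slfn4 (a Schlafen family gene of myeloid cells) was at 308, 468, 0 and 0 CPM in healthy and 883, 797, 827, 1160 and 656 CPM in sick mice. Every sick mouse was above every healthy mouse, and the log2 fold change was 1.83 ± 0.48 with an edgeR adjusted p of 0.120. Rtp4, a chaperone of receptor transport, was at 38.6 CPM in healthy mouse 1, at 0 in the other healthy mice and at 242, 204, 136, 260 and 118 CPM in the sick mice. Its 2 healthy counts came from 1 mouse, and its log2 fold change of 2.99 ± 0.80 had an edgeR adjusted p of 0.120. Of the remaining tested genes of the list, named here after their values were seen, Ifitm3, which blocks virus entry, was at 210.5 to 424 CPM in healthy and 515 to 1132 CPM in sick mice, with no overlap (log2 1.28 ± 0.40, edgeR adjusted p = 0.352). Trim30a and Sp100 did not overlap either, and Rsad2 (viperin) overlapped through healthy mouse 4, at 316 CPM on 3 counts. Slfn1, Slfn2 and Samhd1 had log2 fold changes of 0.04, -0.21 and -0.19.

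**Figure D4:**
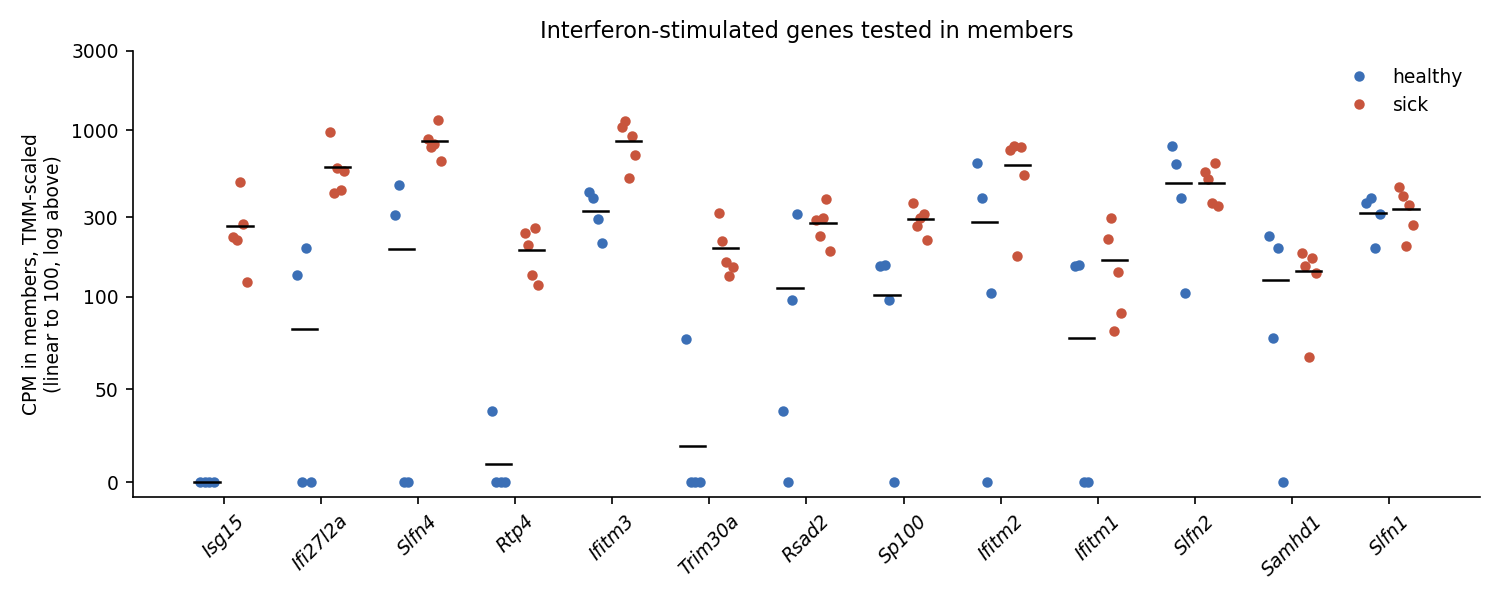
TMM-scaled CPM in members of the 13 interferon-stimulated genes that passed the filter on low counts, linear up to 100 and logarithmic above; each point is 1 mouse (blue healthy, red sick), black lines are group means, and genes run from the smallest p on the left to the largest. In the first 6 genes and in Sp100 every sick mouse lies above every healthy mouse.

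Promoter letters are shown for the 2 genes of the list that did not overlap between groups and whose window held the motif. The motif GAAA, any pair of bases, then GAAA again, a plain form of the interferon-stimulated response element, was searched on both strands in the 250 bases before the start site of RefSeq genes (GRCm38.p6), and overlapping matches were counted singly. It stood in 4 of 11 matched genes of the list that were tested (36.4%) and in 23 of 519 matched genes of all 750 tested (4.43%). Of the 27025 genes with a promoter entry, 936 (3.46%) held it. Ifi27l2a and Rtp4 had no entry in that table. Both windows below are 100 bases on the minus strand, written 5′ to 3′ along the gene, with the matches in capitals: 3 overlapping matches for Isg15 (chr4:156200830-156200929), the nearest 66 to 57 bases before the start site, and 1 on the opposite strand for Trim30a (chr7:104465194-104465293), 36 to 27 bases before it.
Isg15: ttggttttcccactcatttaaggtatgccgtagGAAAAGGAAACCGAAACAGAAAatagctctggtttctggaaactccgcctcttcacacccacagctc
Trim30a: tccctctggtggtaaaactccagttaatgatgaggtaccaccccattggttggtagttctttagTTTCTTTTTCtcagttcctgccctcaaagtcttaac
The Isg15 run holds 3 matches in a row. Trim30a has another start site in the RefSeq table, whose window held no match. Slfn4, Ifitm3, Ifitm1, Sp100, Slfn1, Slfn2 and Samhd1 had no match in theirs. A match describes letters and was not measured as a site.

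The summed level of all 65 list genes holds the tested and called genes as well as those too low to be tested. The summed level is therefore no separate measure of the untested genes. It was 4501, 3847, 1675 and 1377 CPM (unscaled) in members of healthy mice 1 to 4 and 9307, 8241, 6410, 8370 and 4975 CPM in sick mice 1, 3, 4, 5 and 6. Healthy mice 3 and 4 lay lowest, and sick mouse 6 lay just above healthy mouse 1. In cells thinned to 400 counts, 3 or more list counts were found in 33.3%, 22.7%, 5.88% and 9.09% of members of healthy mice 1 to 4. In sick mice 1, 3, 4, 5 and 6 these shares were 64.96%, 59.5%, 53.4%, 60% and 35.7%. Sick mouse 6 was again next to healthy mouse 1. The list counts were uneven between thinned cells. Their variance was 1.39 to 2.13 times their mean in healthy mice and 1.62 to 2.23 times in sick mice. Without thinning, 81.4% of healthy and 95.9% of sick members had at least 1 list count, and after thinning 64.6% and 89.7% did.

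Interferon-stimulated genes also rose outside the members. In the same list, 11 of 29 tested genes rose in immature neutrophils, where 21 of all 3696 tested genes (0.568%) were called, and 29 of 55 in the cells outside the S100 limit, where 86 of all 9931 tested genes (0.866%) were called. None of the list fell in either. Outside the S100 limit the summed level was 1159 to 2372 CPM in healthy and 3681 to 5498 CPM in sick mice. It is unscaled, as are the other levels in this paragraph. Isg15 itself stood at 14.9 to 30.2 CPM in healthy and 130 to 251 CPM in sick mice outside the limit, and the healthy values there lie below the 37.1 CPM that the members of the healthy group could resolve. Ifi27l2a outside the limit was at 14.1 to 63.9 CPM in healthy and 249 to 469 CPM in sick mice, and Rtp4 at 0 to 5.5 CPM and 44.9 to 69.7 CPM. Members had higher levels than these cells in every sick mouse for Slfn4 (604 to 1189 against 96.3 to 178 CPM) and for Rtp4 (109 to 267 against 44.9 to 69.7 CPM). For Isg15 the ranges overlapped (114 to 473 against 130 to 251 CPM). The higher levels were not particular to the members. Pooled over sick mice, neutrophils with 3 or more stefin A counts had Slfn4 at 1263 CPM, where members had 845 CPM. Rtp4 was at 270 against 195 CPM and Isg15 at 276 against 233 CPM. Pooled over all mice, the list summed to 8742 CPM in those neutrophils and 7123 CPM in members. Immature neutrophils of sick mice had Slfn4 at 407 to 705 CPM and Rtp4 at 68.0 to 112 CPM. Free RNA of other cells can reach a member's well, and its part in the rise was not tested.

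**Figure D5:**
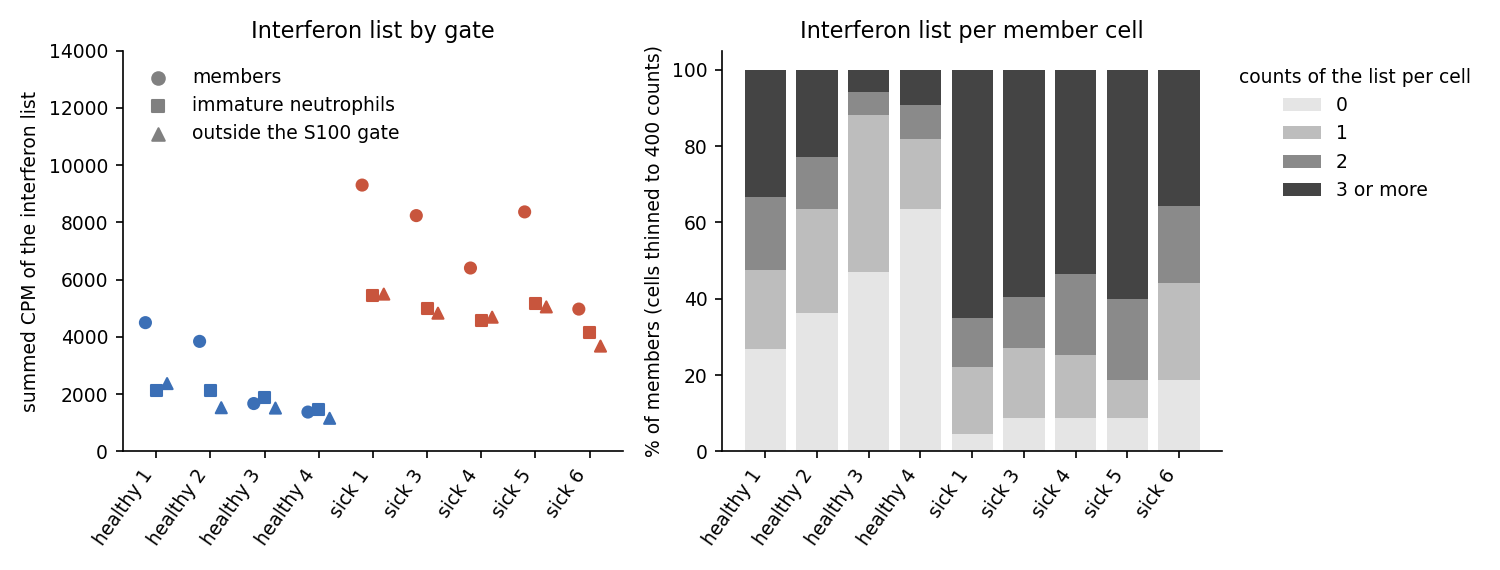
Left, summed unscaled CPM of the 65 interferon-stimulated genes in members (circles), immature neutrophils (squares) and cells outside the S100 limit (triangles) of each mouse; right, the percentage of members with 0, 1, 2 and 3 or more counts of the list after thinning to 400 counts. Members run from 1377 to 4501 CPM in healthy mice and from 4975 to 9307 CPM in sick mice (blue healthy, red sick).

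No gene of the 16 other lists passed the test in members. Among interleukin-1 family genes and mediators, 8 of 22 were tested and 4 had a log2 fold change above 0, with a median of 0.19. Of all 750 tested genes 56.1% were above 0, with a median of 0.07. Hdc, the histamine-forming enzyme, was at 126 ± 146 in healthy and 319 ± 93.7 CPM in sick mice, and Il1rn, the interleukin-1 receptor antagonist, at 171 ± 217 and 203 ± 81.8 CPM. Cxcl2 was at 72.3 ± 145 and 218 ± 92.6 CPM. Among 11 tested pattern recognition and lectin receptors the median was 0.31. Trem1 was at 551 ± 309 and 969 ± 108 CPM and Cd14, the co-receptor for lipopolysaccharide, at 522 ± 341 and 940 ± 438 CPM, with edgeR adjusted p = 0.937 for each. Their healthy and sick values overlapped.

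Of 9 tested chemoattractant receptors and adhesion genes, 5 had a log2 fold change above 0, about the share of all genes tested (56.1%). Ccr1 was at -0.59 ± 0.39 and Cxcr4, the receptor that holds neutrophils in the marrow, at 0.49 ± 0.55. Medians of the immature neutrophil, S100, NF-kB, glycolysis, transcription factor and cell cycle lists lay between -0.16 and 0.43. The 6 tested NADPH oxidase genes, which make the oxidative burst, had a median of 0.10. The 11 tertiary granule and matrix genes had a median of 0.24, and the 10 immediate-early genes one of 0.29. B2m, the light chain of MHC class I, had 396 ± 223 in healthy and 808 ± 173 CPM in sick mice and a log2 fold change of 1.04 ± 0.41 (edgeR adjusted p = 0.549). H2-D1 and H2-K1 had 0.40 and 0.35. The 4 heat-shock chaperones had a median of 0.90, led by Hsp90ab1 at 1.02 ± 0.46 (edgeR adjusted p = 0.724). All 6 tested mitochondrially encoded genes had values below 0, with a median of -0.46 and mt-Nd1 lowest at -1.03 ± 0.41 (edgeR adjusted p = 0.549). The direction was not stable in members. The list median was -0.28 without healthy mouse 4, and 0.15 with 4 of 7 above 0 in mice with at least 20 member cells. In members with at least 300 genes it was 0.09 with 3 of 5 above 0. In the cells outside the S100 limit every mitochondrially encoded gene that was fitted was lower in sick mice. Their log2 fold changes there ran from -1.41 (mt-Co1) to -1.71 (mt-Nd5), with edgeR adjusted p of at most 0.0157. Mitochondrial transcripts were 4.65%, 6.50%, 6.92% and 8.86% of member counts in healthy mice 1 to 4, and 3.46% to 5.31% in sick mice. Most of this share lies in mitochondrial genes outside the list. The 10 list genes summed to 2584 to 5214 CPM in healthy and 1563 to 2855 CPM in sick mice (unscaled).

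Whether arthritis acted differently on members and on their neighbours was tested by an interaction in edgeR with the mouse as a block. Against neutrophils with 3 or more stefin A counts, none of 1408 genes (0%) differed, with 99 at an unadjusted p under 0.05. The smallest p values belonged to Skap2, an adaptor protein of integrin signalling, and Tbc1d15, each with an edgeR adjusted p of 0.376. Only 1 healthy and 4 sick mice could be used, and the lone healthy mouse was assumed to vary like the sick ones. A miss of this test does not show that both kinds of cells respond alike. The Slfn4 difference of the log2 fold changes, for example, was 0.36 with an SE of 0.62.

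Against immature neutrophils, 3 of 5888 genes (0.051%) were called: Prg2, Fam207a and Hba-a1. The healthy side was healthy mouse 1 alone against the 5 sick mice, so these calls set that mouse apart from the sick mice and do not show a difference between the conditions. With all 9 mice, none of 2170 genes passed. Prg2, the major basic protein of eosinophil granules, was at 542 CPM (unscaled, as are the levels below) in members of healthy mouse 1. In members of sick mice 1, 3, 4, 5 and 6 it was at 425, 152, 223, 328 and 673 CPM. In immature neutrophils it was at 846 CPM in healthy mouse 1 and at 145, 217, 92.3, 119 and 163 CPM in the sick mice, all lower. In members of healthy mice 2, 3 and 4, not in this fit, it was at 334.5, 1954 and 197 CPM. The difference of the log2 fold changes was 2.20 ± 0.41 (SE; edgeR adjusted p = 0.000638). In the cells outside the S100 limit Prg2 stood at 3706 CPM in healthy mouse 1, higher than in any other mouse, and the part of eosinophil RNA was not tested.

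Hba-a1, a haemoglobin alpha chain with a near-identical copy, was at 5898 CPM in members of healthy mouse 1 and at 14518 to 31675 CPM in the sick mice. In immature neutrophils it was at 4305 CPM and 5722 to 11413 CPM. The difference of the log2 fold changes was 1.07 ± 0.25 (edgeR adjusted p = 0.0479), and the other healthy mice, not in this fit, had 22997 to 32369 CPM in members. Fam207a rested on 8 counts in members of healthy mouse 1, with 0 in its immature neutrophils, and on 6 counts in all sick members together. With all 9 mice, where 167 genes had an unadjusted p under 0.05, the difference of Prg2 was 1.19 ± 0.37 (edgeR adjusted p = 0.216) and that of Hba-a1 0.78 ± 0.22 (adjusted p = 0.215). Healthy mouse 1 cannot be left out of the main fit, since it is the only healthy mouse with 20 cells of both kinds. Il1b had a difference of the log2 fold changes of -1.62 ± 0.42 (edgeR adjusted p = 0.136), which was -1.49 ± 0.43 with all 9 mice (edgeR adjusted p = 0.216). Its level was at 1104, 502, 744 and 98.4 CPM (unscaled) in healthy members and 228 to 1025 CPM in sick members, while immature neutrophils had 0 to 95.9 CPM and 78.8 to 233 CPM.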

How the data were processed

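The deposited table holds raw counts per gene and cell for 24296 genes and 16751 cells of 9 mice, made by the authors with version 1.0.1 of the Drop-seq Core Computational Protocol, bcl2fastq, Picard and STAR, per the labels; repeat sequencing rounds of a sample were merged. The labels name GRCh38 in one place and GRCm38 and mm9 in another, and the table gives gene symbols only. No cell was removed here, and no doublet caller was run on the members. Cells were gated by the rule, counts were summed per mouse, and edgeR 4.0.16 (filterByExpr, TMM, glmQLFit, glmQLFTest; R 4.3.3) tested sick against healthy, with Benjamini-Hochberg adjustment over all tested genes at 0.05. DESeq2 1.42.0 was an alternative. Shares and medians per mouse were compared by exact permutation over 126 regroupings of the mice (Python 3.11.15, scipy 1.17.1). Immature neutrophils and cells outside the S100 limit were summed in the same way.

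The members and the gene lists were chosen with earlier results of these data known. Named genes were the called genes (at most 10 in each direction, with at least 50 CPM), up to 4 tested genes of each list with the smallest p, the 6 markers, the smallest p of each interaction (5 if called, otherwise 2) and, between kinds of cells, the 8 highest and 8 lowest median log2 ratios among genes of at least 100 CPM; other names were chosen after their values were seen. Log2 ratios within mice carry 0.5 counts of the smaller library, added to both sides as CPM. The design asked for 20 member cells per mouse, which only 1 healthy mouse reached; all 9 mice were kept as the main comparison and the minimum became an alternative. The 14 rule genes were left out in one alternative. Scripts were tested on simulated data. Member counts per mouse ran from 10164 to 243424. Nothing in the labels says how mice were batched, so p-values measure the spread between these 9 mice, and a batch that follows the groups cannot be told apart from them.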

Additional observations from a re-analysis of the deposited data

Results flagged for a closer look

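In the 33 groups of 4 or 5 mice that were examined, 3 had 1 mouse far from the rest, where chance gives about 1 in 20 groups. The median number of genes per member cell was 342 in healthy mouse 4, against 249.5 to 264 in the other healthy mice. Mmp8 in members of healthy mouse 4 was at 316 CPM, against 2497 to 2737 CPM in the other healthy mice. Rtp4 in members was at 38.6 CPM in healthy mouse 1, where the other healthy mice had no count. That level is 2 counts, and in healthy mice 2, 3 and 4 a count of 0 allows 251 to 295 CPM. Any value beside zeros alone is flagged, so the rate of 1 in 20 does not hold here. Healthy mouse 1 is not shown to differ in Rtp4.

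In the interaction test of members against immature neutrophils 3 genes were called, with healthy mouse 1 as the only healthy mouse, so they set this mouse apart from the sick mice and do not show a difference between the conditions. The difference of the log2 fold changes was 2.20 for Prg2, -9.76 for Fam207a and 1.07 for Hba-a1. The value of Fam207a is a fitted one from a gene with 0 counts in 1 of the groups and is no bound. With all 9 mice no gene was called, and without sick mouse 5 none was.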

How the results depend on the processing

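The share of all cells kept its direction and an unadjusted exact permutation p under 0.05 in every alternative except the one that leaves healthy mouse 1 as the only healthy mouse, where the difference was 2.95 points (exact permutation p = 0.333, with 0.333 the smallest p that 6 splits give). The difference was 3.41 points in cells with at least 300 genes, 4.20 with S100 at 15% or more and 4.60 in cells with 0 stefin A counts, against 6.17. Leaving out 1 mouse at a time gave 5.65 to 7.25. The share of mature neutrophils, -2.12 points, was 1.19 with stefin A limited to 0.3% of counts, 2.78 after thinning, 16.6 with healthy mouse 1 alone, and -8.35 to 2.38 with 1 mouse left out. Median counts per member cell, -31.9 in the main comparison, differed by -66.8 to 7.33 with 1 mouse left out. Median genes differed by -17.7 to 13.1. With S100 at 15% or more the differences were -172 counts and -17.0 genes. In cells with 0 stefin A counts they were -41.75 counts and -17.9 genes. The count of 2 called genes was 0 with DESeq2, 21 with no filter on low counts (20 higher, 1 lower), 0 in cells with 0 stefin A counts (30 at an unadjusted p under 0.05), 0 with at least 50 or at least 20 cells per mouse, and 0 to 3 with 1 mouse left out. In 21 alternatives Isg15 was tested in 16 and lost its call in 7, and Ifi27l2a was tested in 21 and lost it in 12. Neither changed direction. The minimum of 50 cells and that of 20 cells per mouse kept the same mice, so they are the same fit counted under both names. The 3 interaction genes against immature neutrophils became 8 with no filter, 0 after thinning, 0 with all 9 mice and 0 to 13 with 1 sick mouse left out (0 without sick mouse 5, 1 without sick mouse 1 or 6, 5 without sick mouse 3, 13 without sick mouse 4). The interaction with stefin A neutrophils gave 0 calls in each alternative run. In all, 65 of 93 alternative values of these comparisons were kept, and the cause of the other moves was not tested. A share or median was kept if its direction and side of the threshold held. A count of called genes was kept if it was of similar size, whichever genes were called.

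With the mouse number as a replicate block, 1 gene was called, Isg15 (edgeR adjusted p = 0.00552), and Ifi27l2a had 0.0582. The numbers mark different animals, and same-numbered mice correlated at 0.21, -0.10 and 0.21 over 750 genes. No differently numbered mice were set beside them, so these values cannot tell whether same-numbered mice shared a batch. Depth limits the healthy side most: a count of 0 over the 80855 healthy member counts allows 37.1 CPM.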
